A study of Mus musculus with 2 samples.

Results

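Megakaryocytes were described in single-cell RNA libraries of mouse hearts at E10.5. They were chosen by their own transcripts. A barcode had to hold at least 3000 UMIs (unique molecular identifiers, which count captured transcripts), at least 500 genes, at most 20% mitochondrial UMIs and under 20% hemoglobin UMIs. It then had to hold a UMI of at least 3 of the 6 genes Itga2b, Gp9, Gp1bb, Ppbp, Treml1 and Itgb3, and of fewer than 3 of the 5 macrophage genes Csf1r, C1qa, C1qb, C1qc and Mrc1. This left 221 megakaryocytes of 13406 filtered barcodes. The knockout library held 159 and the wildtype library held 62.

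The knockout library came from BubR1fl/fl ; Nkx2.5-cre embryos and the wildtype library from BubR1+/+ ; Nkx2.5-cre embryos. Both genotypes carried the Cre on 1 allele, so the wildtype hearts carried it too. Nkx2.5-cre acts in cardiac progenitors and the cells that descend from them, and recombination in blood cells of these hearts was not measured. BubR1, the product of Bub1b, is a kinase-like protein of the spindle assembly checkpoint, which holds back chromosome separation until every chromosome is attached to the spindle. For each genotype 4 hearts were pooled into 1 library, after the embryos had spent 3 hours on ice. With 1 library a genotype nothing could be tested against replicates, and every difference given here is between these 2 libraries. The 95% intervals, in square brackets, hold the error of counting UMIs and no other.

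Megakaryocytes are the large blood cells that shed platelets. In the mouse embryo they come first from the yolk sac and later from the fetal liver. They enlarge by endomitosis, in which the genome is copied again and mitosis is left before the cell divides. Their progenitors divide in the usual way, so division genes can be on in progenitors and in cells in endomitosis alike. Platelet genes build up as the cells mature.

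Many platelet genes are driven by a small set of factors. GATA1 and the ETS-family factors FLI1 and GABPA bind many platelet gene promoters, at short elements that hold AGATAA or GGAAG. The 100 bases before the RefSeq start site are shown for 6 of these genes, from the GRCm38.p6 table, to show what these stretches share. Capitals mark matches to either motif, and TTATCT and CTTCC are the same motifs read on the other strand. The first 3 lines hold both motifs within 250 bases before the start, and the next 3 hold GGAAG without AGATAA.

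Gp5: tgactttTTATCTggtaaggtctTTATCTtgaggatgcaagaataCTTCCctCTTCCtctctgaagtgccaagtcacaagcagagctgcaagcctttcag
Ly6g6f: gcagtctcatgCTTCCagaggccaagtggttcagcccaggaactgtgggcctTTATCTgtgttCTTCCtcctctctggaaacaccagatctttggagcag
F2rl2: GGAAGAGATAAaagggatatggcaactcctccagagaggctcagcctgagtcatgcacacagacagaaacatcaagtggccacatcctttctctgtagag
Pf4: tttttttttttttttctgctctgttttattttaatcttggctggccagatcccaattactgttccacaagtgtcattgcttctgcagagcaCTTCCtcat
Itga2b: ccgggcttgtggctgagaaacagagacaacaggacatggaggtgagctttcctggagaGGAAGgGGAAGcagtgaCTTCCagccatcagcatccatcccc
Gp9: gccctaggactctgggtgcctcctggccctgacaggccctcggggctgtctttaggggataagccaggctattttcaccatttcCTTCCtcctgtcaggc

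The stretches lie at chr16:30310782-30310881, minus strand, chr17:35085596-35085695, minus strand, chr13:95696820-95696919, plus strand, chr5:90772335-90772434, plus strand, chr11:102469884-102469983, minus strand and chr6:87777970-87778069, plus strand. In Gp5, the thrombin-cleaved subunit of the von Willebrand factor receptor, both motifs stand in pairs. In F2rl2, which encodes a thrombin receptor of mouse platelets, they touch each other. Of 18 genes looked up, which were the choosing genes, Pf4 and the genes most confined to megakaryocytes, 15 had a promoter in the table. AGATAA was found in 4 of the 15 (26.7%) and GGAAG in 13 of the 15 (86.7%), against 9.99% and 64.1% of all 32851 promoters of this length. A match to these letters is a description of the sequence and no measured binding site.

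The knockout library had the larger share of megakaryocytes. They made up 3.31% [2.82, 3.86] of the 4800 knockout barcodes under the hemoglobin limit (159 barcodes), against 1.18% [0.909, 1.51] of 5239 in the wildtype library (62 barcodes). Over all filtered barcodes, erythroid ones included, the shares were 2.67% [2.27, 3.11] of 5966 and 0.833% [0.639, 1.07] of 7440. Macrophages, chosen by at least 3 of the 5 macrophage genes, went the other way, with 45 barcodes in the knockout library and 248 in the wildtype library. Blood progenitors, other barcodes that held both Myb and Ikzf1, went the same way as megakaryocytes, with 124 and 10 barcodes. The higher share in the knockout library held under every setting of the rule that was tried. It was 2.21% against 0.63% when every barcode was first thinned to 3000 UMIs, so that every barcode was read at the same depth. The libraries did not differ in this way below the filter: of barcodes with 500 to under 3000 UMIs, 2.15% [1.59, 2.83] in the knockout and 2.16% [1.67, 2.74] in the wildtype library met the rule on genes.

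Depth differed between the libraries and stands beside every result here. The knockout file held 130039314 UMIs and the wildtype file 122834180 UMIs. Megakaryocytes held a median of 14953 UMIs (lowest 3028, highest 58164) and 3959 genes in the knockout library, against 7263.5 UMIs (3022 to 42121) and 3042.5 genes in the wildtype library. The other barcodes under the hemoglobin limit had medians of 15970 and 8599 UMIs. In all, 2705185 and 560384 UMIs were summed over the megakaryocytes. Both libraries shared 8 barcode sequences after filtering, and 0 of these were megakaryocytes in both. The Y-linked gene Eif2s3y had 0 UMIs in knockout megakaryocytes and 19 in wildtype ones, and 0.0121 against 34.8 CPM (UMIs scaled to a total of 1000000) in the other barcodes, so the sex of the pooled embryos and the genotype cannot be told apart. Xist, an X-linked gene, was found in both libraries, at 542 CPM in knockout and 177 CPM in wildtype megakaryocytes. In the other barcodes Xist stood at 572 and 311 CPM.

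Summed over the cells of each library, the markers went with the label of a megakaryocyte, less evenly among wildtype cells. Pf4, platelet factor 4, an alpha-granule chemokine that took no part in the choice, stood at 11300 CPM [11200, 11500] in knockout megakaryocytes (30661 UMIs) and at 2970 CPM [2830, 3120] in wildtype ones (1666 UMIs). In the other barcodes it stood at 16.4 and 56.6 CPM, and in macrophages at 118 CPM in the knockout and 946 CPM in the wildtype library. In the wildtype library 5 megakaryocytes held 71.5% of the Pf4 UMIs. The 26 wildtype megakaryocytes with 3 choosing genes stood at 376 CPM of Pf4, under the wildtype macrophages. Ranked by the smaller of the log2 ratios over the other barcodes, leading genes were Cd226, Ly6g6f, Tubb1, Ppbp, Gp6, Treml1, Gp5, Alox12, Gp9, F2rl2, Tmem40, Slc6a4, Itgb3 and Gp1ba. In all, 87 of 2255 genes with at least 50 UMIs in each library were at least 8-fold higher in megakaryocytes than in the other barcodes of both libraries. Of the leading genes 4 are choosing genes, and all were measured in the cells that were chosen, so these ratios describe the choice. Transcripts of other cells were present too. The choosing genes and Pf4 summed to 13700 CPM in knockout and 5460 CPM in wildtype megakaryocytes, and erythroid markers, hemoglobin included, to 3480 and 13200 CPM.

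**Figure D1:**
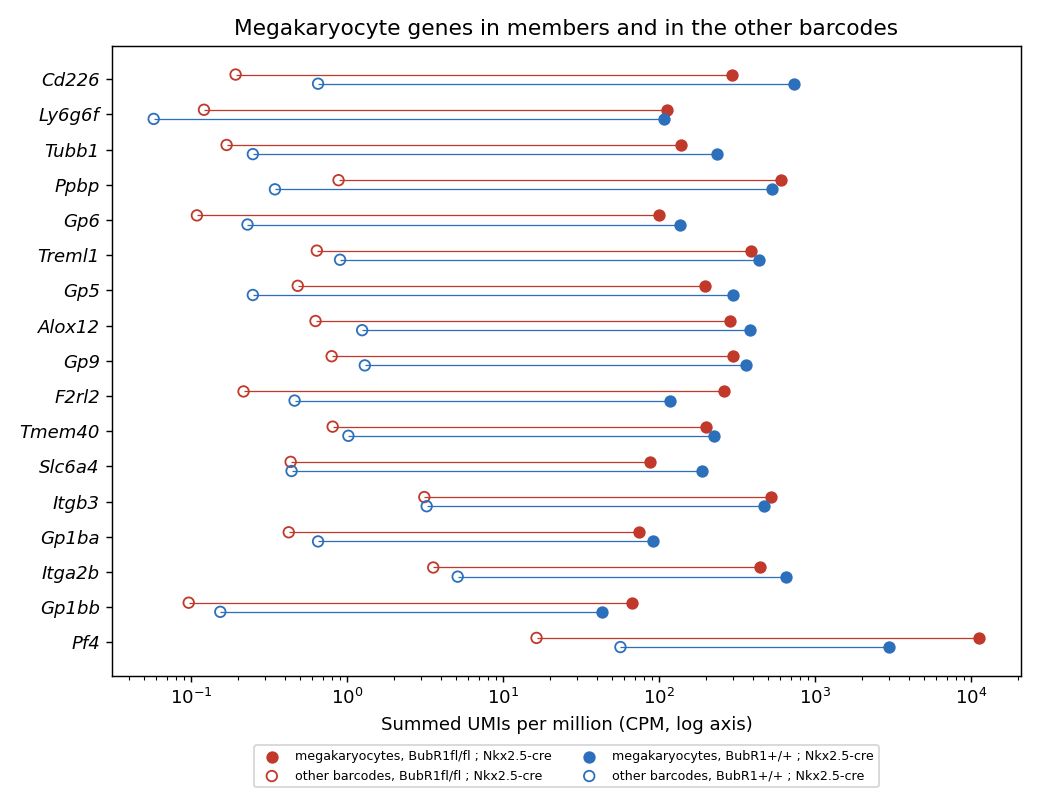
Levels of megakaryocyte genes, in CPM of summed UMIs on a log axis. Filled points are megakaryocytes and open points the other barcodes under the hemoglobin limit, with the BubR1fl/fl ; Nkx2.5-cre library in red above the BubR1+/+ ; Nkx2.5-cre library in blue. Each gene drawn is higher in megakaryocytes than in the other barcodes of both libraries, and Pf4 is the highest in each.

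The choosing genes themselves were within 2-fold of each other over all megakaryocytes of the libraries, and they are given as a description. Itgb3, the beta-3 integrin subunit that pairs with the product of Itga2b to form the fibrinogen receptor, stood at 521 CPM [494, 549] in knockout megakaryocytes and 469 CPM [414, 530] in wildtype ones. Itga2b was at 441 CPM [416, 466] and 648 CPM [583, 718]. Gp9 and Gp1bb, subunits of the von Willebrand factor receptor, were at 298 and 360 CPM and at 67.6 and 42.8 CPM. Gp1bb overlaps Sept5 on the same strand, so its UMIs may be split between both. Ppbp, the precursor of another platelet chemokine, was at 607 and 530 CPM, and Treml1, a receptor of the alpha-granule membrane, at 387 and 435 CPM. In cells under 10000 UMIs the log2 ratios, knockout over wildtype, were 3.65 for Ppbp, 1.46 for Gp9, 1.39 for Itgb3, 1.12 for Gp1bb, 0.71 for Treml1 and 0.46 for Itga2b. In cells of 10000 UMIs or more they were -0.82, -0.85, -0.09, 0.99, -0.11 and -0.40. Ppbp was uneven among cells: 1 wildtype megakaryocyte held 53.5% of the 297 wildtype UMIs of this gene.

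The number of choosing genes found in a cell differed between the libraries, and it describes the choice. In the knockout library 34, 42, 37 and 46 megakaryocytes had 3, 4, 5 and 6 of the choosing genes, and in the wildtype library 26, 21, 12 and 3. The median depths of these groups were 11500.5, 14168.5, 18584 and 17356 UMIs, and 9075, 6814, 5074 and 13541 UMIs. The cells were not thinned for these counts, and the part of depth in them was not tested. Just outside the rule, with 2 choosing genes, were 55 knockout and 32 wildtype barcodes, with Pf4 at 248 and 118 CPM. Just inside, with 3, Pf4 stood at 1950 and 376 CPM. With 6 it stood at 21600 and 9880 CPM.

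Pf4 had the most UMIs of the granule cargo genes and was higher in the knockout library. Its log2 ratio, knockout over wildtype, was 1.93 [1.86, 2.0]. Among knockout megakaryocytes the lowest level was 0 CPM, the median 6690 CPM and the highest 97000 CPM. Among wildtype megakaryocytes the lowest was 0 CPM, the median 436 CPM and the highest 45800 CPM. The ranges overlap, and 13 of 159 knockout and 20 of 62 wildtype megakaryocytes held no Pf4 UMI. After thinning every cell to 3000 UMIs, 88.7% [82.7, 93.2] of knockout and 58.1% [44.8, 70.5] of wildtype megakaryocytes held a Pf4 UMI, against 2.48% and 0.773% of cardiomyocyte barcodes, which should lack it. The wildtype sum rested on few cells. One wildtype megakaryocyte held 25.9% of it and 5 held 71.5%, against 3.71% and 14.4% in the knockout library. Without the top cell of each library the levels were 11100 and 2380 CPM. Pf4 was higher in the knockout library at each number of choosing genes, from 3 to 6. It was also higher in cells under 10000 UMIs, at 20000 and 2180 CPM, and in cells of 10000 UMIs or more, at 10200 and 3670 CPM.

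**Figure D2:**
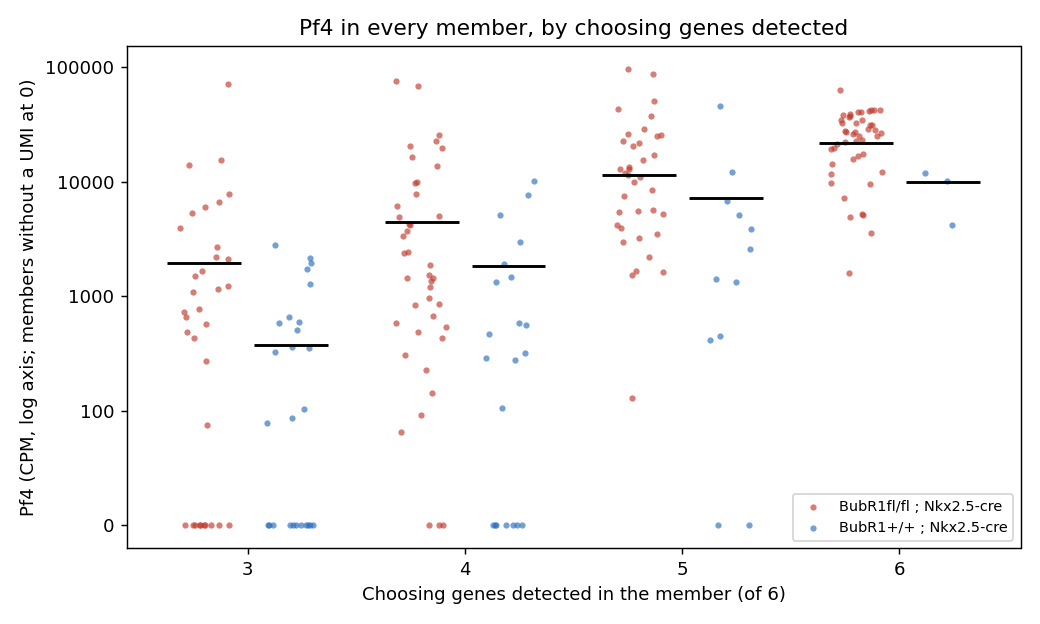
Pf4 level of every megakaryocyte, in CPM on a log axis with cells that had no Pf4 UMI drawn at 0, by how many of the 6 choosing genes the cell held. Knockout cells are red and left of the wildtype cells in blue, and black lines give the level of the summed UMIs, between 1950 and 21600 CPM in the knockout library and between 376 and 9880 CPM in the wildtype library.

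Over all genes the megakaryocytes of the libraries were nearly centred on each other. The median log2 ratio over the 10417 genes with at least 20 UMIs in both libraries together was -0.094. Of these genes 835 (8.02%) were at least 2-fold higher in the knockout library and 1463 (14.0%) at least 2-fold lower. These shares are the background for the counts that follow. At a total of 20 UMIs and equal level, a gene would have 3.43 UMIs in the wildtype library, so genes with few UMIs can pass 2-fold by counting error.

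The platelet gene lists depended on the depth of the cells. Over all megakaryocytes their median log2 ratios lay between -0.21 and 0.31, but in cells under 10000 UMIs, 56 knockout and 44 wildtype ones, they lay higher in the knockout library. There the medians were 0.76 for surface receptors, 0.83 for granule cargo, 0.91 for granule release and lipid mediators, 1.07 for signalling and 0.83 for the cytoskeleton, beside -0.126 for all 4724 genes with at least 20 UMIs in these cells. These medians rest on 21, 17, 8, 27 and 23 genes. In cells of 10000 UMIs or more the medians of the same 5 lists were -0.15, -0.08, 0.31, 0.07 and -0.27. The ratios over all megakaryocytes that follow mix both kinds of cell.

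Most platelet surface receptors were within 2-fold of each other over all megakaryocytes. Of 26 receptor genes with at least 20 UMIs, 3 (F2r, F2rl2 and F2rl3) were at least 2-fold higher in knockout megakaryocytes and 2 (Cd226 and Cd36) at least 2-fold lower, with a median log2 ratio of -0.21. The count of higher genes is close to the background. F2r, the thrombin receptor PAR1, which human platelets use, stood at 394 CPM in knockout and 137 CPM in wildtype megakaryocytes, a log2 ratio of 1.52 [1.19, 1.87]. F2rl2, or PAR3, stood at 263 and 118 CPM (1.16 [0.79, 1.54]). F2rl3, or PAR4, had only 78 and 5 UMIs, with 4 of the 5 in 1 wildtype cell, so its log2 ratio of 1.69 [0.41, 3.35] is loose. In cells under 10000 UMIs the log2 ratios of F2r and F2rl2 were 2.14 and 1.84, and in cells of 10000 UMIs or more 1.27 and 0.98.

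The most abundant receptors gave values close to each other over all megakaryocytes. Cd9, a tetraspanin, stood at 851 and 933 CPM, and Clec1b, the podoplanin receptor CLEC-2, at 631 and 678 CPM, with intervals of the log2 ratio that hold 0. Both were higher in the knockout library in cells under 10000 UMIs, with log2 ratios of 0.74 [0.54, 0.94] for Cd9 and 1.18 [0.97, 1.39] for Clec1b. Gp5 was at 196 and 298 CPM (-0.61 [-0.86, -0.35]), and Gp6, the collagen receptor, at 100 and 136 CPM (-0.44 [-0.81, -0.05]). Cd226, an adhesion receptor of the immunoglobulin family, had the lowest ratio of the abundant receptors, at 294 and 735 CPM (-1.32 [-1.5, -1.15]). In cells under 10000 UMIs the ratios of Cd226 and Gp6 turned to 0.25 and 0.93. For Gp5 the interval held 0 at each depth, at -0.23 [-0.62, 0.15] in cells under 10000 UMIs and -0.04 [-0.46, 0.40] in deeper ones.

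Granule cargo was split. Of 18 cargo genes, Pf4 included, 5 were at least 2-fold higher in knockout megakaryocytes and 4 at least 2-fold lower, with a median of 0.22. Thbs1, thrombospondin 1, had the most UMIs after Pf4, at 1210 and 1580 CPM (-0.39 [-0.50, -0.28]), and its ratio turned to 0.81 in cells under 10000 UMIs. Vwf, von Willebrand factor, stood at 187 and 157 CPM (0.26 [-0.07, 0.60]), and 1 wildtype cell held 45.5% of the 88 wildtype UMIs. Its ratio was 1.85 [1.17, 2.58] in cells under 10000 UMIs and -0.36 [-0.74, 0.03] in deeper ones. Timp3, an inhibitor of matrix proteases, was at 390 and 155 CPM (1.33 [1.01, 1.66]), with 0.36 [-0.28, 1.01] in cells under 10000 UMIs. Sparc, a collagen-binding matrix protein, was at 355 and 1110 CPM (-1.64 [-1.79, -1.5]), but it stood higher in the other barcodes of both libraries, at 1010 and 1270 CPM. Tgfb1, a growth factor stored in granules, was at 361 and 212 CPM (0.76 [0.49, 1.05]), with 1.6 and 0.31 in cells under and over 10000 UMIs. Of its 119 wildtype UMIs 46.2% were in 1 cell.

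Genes that load and release granules, and enzymes of lipid mediators, were also split. Of 16, 3 were at least 2-fold higher in knockout megakaryocytes and 1 lower, with a median of 0.31. Rab27b, the small GTPase of granule secretion, stood at 922 and 403 CPM (1.19 [1.00, 1.40]), and it was 6.2 and 5.17 on the log2 scale above the other barcodes. Mctp1, a calcium-binding membrane protein, was at 80.2 and 25 CPM (1.68 [0.91, 2.58]). Tbxas1 and Alox12, enzymes that make thromboxane and 12-HETE, were lower in the knockout library, at 223 and 325 CPM (-0.54 [-0.78, -0.30]) and at 285 and 384 CPM (-0.43 [-0.65, -0.21]). The ratios of both turned, to 0.14 and 1.00, in cells under 10000 UMIs.

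Over all megakaryocytes, signalling and cytoskeleton genes stayed within 2-fold with few exceptions. Of 27 signalling genes 1 was at least 2-fold higher in knockout megakaryocytes and 0 lower, and the same counts held for 27 cytoskeleton genes. The medians were 0.16 and -0.07. Rap1b, the GTPase that switches on the fibrinogen receptor, was at 2010 and 1300 CPM (0.62 [0.51, 0.74]), and Prkca, protein kinase C alpha, at 1600 and 1140 CPM (0.49 [0.37, 0.61]). Plek, the main substrate of protein kinase C in platelets, was at 923 and 730 CPM (0.34 [0.19, 0.49]). Plcg2, the phospholipase below the collagen receptor, was at 125 and 58.9 CPM (1.09 [0.57, 1.65]). Tmsb4x, the actin-binding thymosin beta-4, had the most UMIs of all these genes, at 17300 and 13000 CPM (0.41 [0.37, 0.45]). Was, the actin regulator lost in Wiskott-Aldrich syndrome in humans, was at 71.7 and 35.7 CPM (1.01 [0.34, 1.75]). The log2 ratios of these genes were larger in cells under 10000 UMIs, at 0.95 for Rap1b, 1.10 for Prkca, 1.22 for Plek, 2.49 for Plcg2, 1.17 for Tmsb4x and 1.54 for Was. Tubb1, the beta-1 tubulin of the platelet ring, went the other way, at 139 and 234 CPM (-0.75 [-1.04, -0.46]), and turned to 0.58 in cells under 10000 UMIs. Tuba4a, an alpha tubulin of platelets, was at 333 and 430 CPM (-0.37 [-0.58, -0.16]) and Myl9, a myosin light chain, at 252 and 446 CPM (-0.83 [-1.04, -0.61]). These ratios turned as well, to 0.60 and 1.40, in cells under 10000 UMIs. The top wildtype cell for Tuba4a held 39.0% of its wildtype UMIs, and that for Myl9 36.8%.

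Among 24 transcription factors 3 were at least 2-fold higher in knockout megakaryocytes and 3 lower, with a median of 0.01. Fli1, an ETS factor of megakaryocyte maturation, stood at 624 and 234 CPM (1.42 [1.16, 1.68]), and Runx1, which acts with it, at 612 and 262 CPM (1.22 [0.98, 1.48]). After thinning, 63.5% [55.5, 71.0] of knockout and 33.9% [22.3, 47.0] of wildtype megakaryocytes held a Fli1 UMI. Fli1 is also an endothelial gene, and in the other barcodes its log2 ratio was -1.28. Gata1, the factor shared with red cells, stood at 130 and 153 CPM (-0.24 [-0.58, 0.12]). Gata2, which Gata1 displaces as blood cells mature, was at 24.4 and 107 CPM (-2.13 [-2.66, -1.60]), and Nfix at 9.61 and 71.4 CPM (-2.89 [-3.66, -2.14]). Nfix stood higher in the other barcodes, at 15.1 and 98.0 CPM, and its log2 ratio there was -2.70 [-2.79, -2.61]. Nfe2, the factor of platelet release, was at 71.3 and 141 CPM (-0.98 [-1.37, -0.59]). The ratios of Fli1 and Runx1 were above 0, and those of Gata2, Nfix and Nfe2 below 0, in cells under and over 10000 UMIs alike. The intervals of Nfe2 held 0 in both, at -0.47 [-1.08, 0.13] and -0.55 [-1.15, 0.09]. That of Gata2 held 0 in cells under 10000 UMIs, at -0.65 [-1.40, 0.09].

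Progenitor genes were low, and over all megakaryocytes mostly lower in the knockout library. Of 18 genes 11 reached 20 UMIs, with 1 (Myb) at least 2-fold higher, 4 at least 2-fold lower and a median of -0.77. In the other barcodes the median was -0.39. In cells under 10000 UMIs it was -1.96 over 6 genes. In cells of 10000 UMIs or more it was 0.14 over 10 genes, with 2 at least 2-fold higher and 2 lower. Mecom, a factor of blood stem cells and of endothelium, was at 22.9 and 286 CPM (-3.64 [-4.09, -3.21]). It was found in 16 of 159 knockout and 22 of 62 wildtype megakaryocytes, and in the other barcodes its level exceeded that of the megakaryocytes in both libraries. Kit, the stem cell factor receptor, had 43 and 6 UMIs (0.57 [-0.67, 2.09]). Sox4 was at 101 and 173 CPM (-0.77 [-1.11, -0.42]), and it stood higher in the other barcodes, at 233 and 304 CPM. Myb, the progenitor factor, had 92 UMIs in 13 knockout cells and 9 UMIs in 2 wildtype cells, and its log2 ratio of 1.08 [0.10, 2.26] turned to -0.55 after thinning. In cells under 10000 UMIs it had 0 and 8 UMIs.

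Cell-division and growth genes were higher in the knockout library over all megakaryocytes. Of 30 G2/M genes 16 were at least 2-fold higher in knockout megakaryocytes and 0 at least 2-fold lower, with a median log2 ratio of 1.03. Genes of the kinetochore and the spindle checkpoint, Bub1b left out, gave 13 higher and 0 lower of 23, with a median of 1.01, and G1 and S phase 13 and 0 of 30, with a median of 0.82. Ribosome biogenesis and Myc target genes gave 10 and 0 of 20, with a median of 1.00. In the other barcodes the medians of the G2/M, spindle, G1 and S phase and ribosome lists were 0.33, 0.28, 0.60 and 0.57, and in cardiomyocyte barcodes -0.24, 0.04, 0.04 and 0.34. In macrophages they were -0.30, 0.07, 0.59 and 1.19. In erythroid barcodes they were 2.06, 2.08, 2.39 and 2.06, beside a median of 0.30 for all genes there. Hemoglobin made up a median of 48.0% of the UMIs of knockout and 82.7% of those of wildtype erythroid barcodes. These UMIs are counted in the totals behind the CPM, and their part in the erythroid medians was not tested.

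The single genes that follow are given over all megakaryocytes, and the ratios of Mki67, Aurka, Birc5, Zwint, Pcna, Npm1 and Ncl turned in cells under 10000 UMIs. Those of Top2a and Mcm7 were 0.01 [-0.98, 1.02] and 0.03 [-1.47, 1.57] there. Top2a, the topoisomerase that untangles chromosomes, was at 410 and 132 CPM (1.63 [1.29, 1.99]), and Mki67, a mark of cycling cells, at 199 and 82.1 CPM (1.27 [0.84, 1.74]). Aurka, the spindle pole kinase, was at 39.6 and 8.92 CPM (2.15 [0.88, 3.80]). Birc5, or survivin, of the chromosome passenger complex, was at 185 and 83.9 CPM (1.14 [0.71, 1.61]). Of the kinetochore genes, Spc25 was at 64.0 and 12.5 CPM (2.36 [1.28, 3.69]), and Knl1, the checkpoint scaffold, at 77.3 and 25 CPM (1.63 [0.85, 2.52]). Bub1, the checkpoint kinase beside BubR1, was at 43.6 and 12.5 CPM (1.80 [0.72, 3.15]), and Mad2l1, its partner in the checkpoint, at 39.2 and 14.3 CPM (1.46 [0.43, 2.71]). Zwint was the exception, at 166 and 211 CPM (-0.35 [-0.64, -0.04]). Of the S phase genes, Mcm7 of the replicative helicase was at 121 and 39.3 CPM (1.62 [1.00, 2.32]) and Pcna, the polymerase clamp, at 172 and 78.5 CPM (1.13 [0.68, 1.61]). The D cyclins stayed level or lower, with Ccnd2 at 338 and 311 CPM (0.12 [-0.11, 0.37]) and Ccnd3, the D cyclin of megakaryocyte endomitosis, at 258 and 341 CPM (-0.40 [-0.63, -0.16]). Npm1, or nucleophosmin, was at 2730 and 1410 CPM (0.95 [0.84, 1.06]), and Ncl, or nucleolin, at 1340 and 635 CPM (1.07 [0.92, 1.24]). Ldha, the lactate dehydrogenase of glycolysis, was at 919 and 360 CPM (1.35 [1.14, 1.56]), and its ratio kept its direction in cells under 10000 UMIs, at 1.56.

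**Figure D3:**
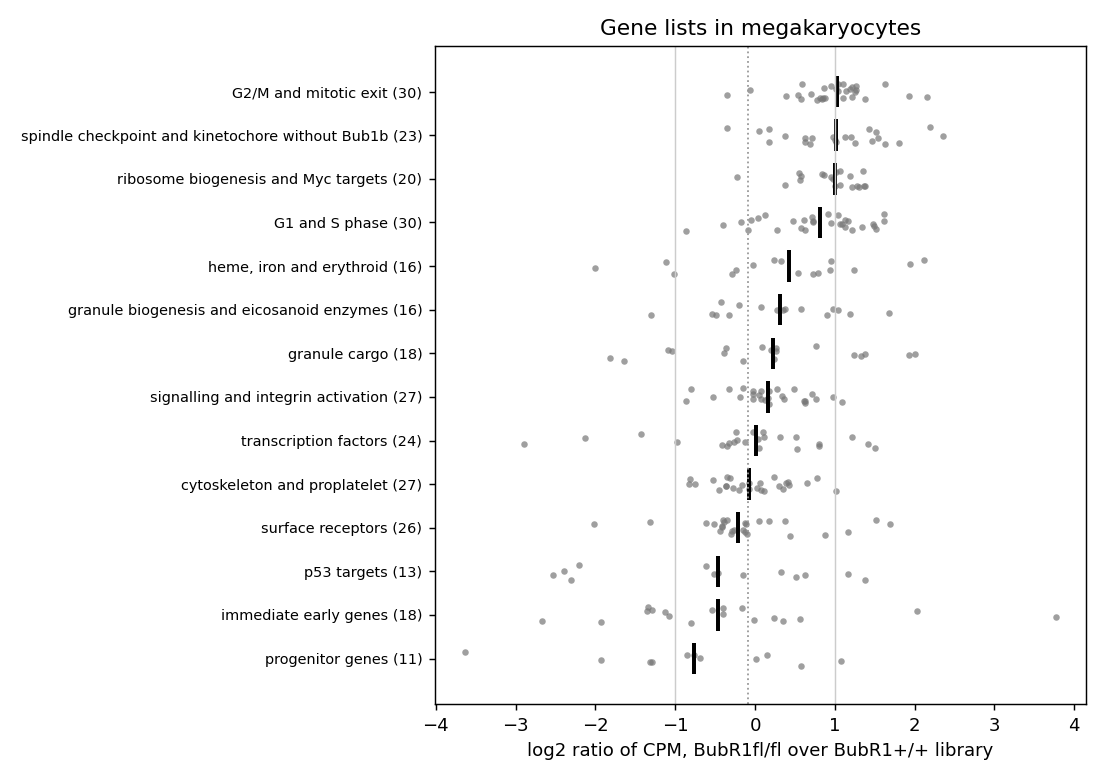
Log2 ratio of CPM in megakaryocytes, knockout over wildtype, for every gene with at least 20 UMIs in 14 gene lists. Grey points are genes, black bars list medians, numbers in brackets how many genes are drawn, the dotted line the median of all genes, and thin lines mark 2-fold. The G2/M, spindle, ribosome and G1/S lists lie to the right, with medians between 0.82 and 1.03.

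The division and growth lists depended on depth in the other direction. In megakaryocytes of 10000 UMIs or more, 103 in the knockout and 18 in the wildtype library, the summed G2/M level was 3240 and 1680 CPM. In those under 10000 UMIs, 56 and 44, it was 733 and 1090 CPM, and the list medians there were -0.63 for G2/M, -0.20 for the spindle list, -0.80 for G1 and S phase and -0.32 for ribosome biogenesis, over only 10, 4, 9 and 10 genes with at least 20 UMIs. With every cell thinned to 3000 UMIs, so that each weighed the same, the medians were 0.66, 0.55, 0.96 and 1.02. Cells of 10000 UMIs or more made up 64.8% of knockout and 29.0% of wildtype megakaryocytes, and the part of depth in the difference was not tested.

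**Figure D4:**
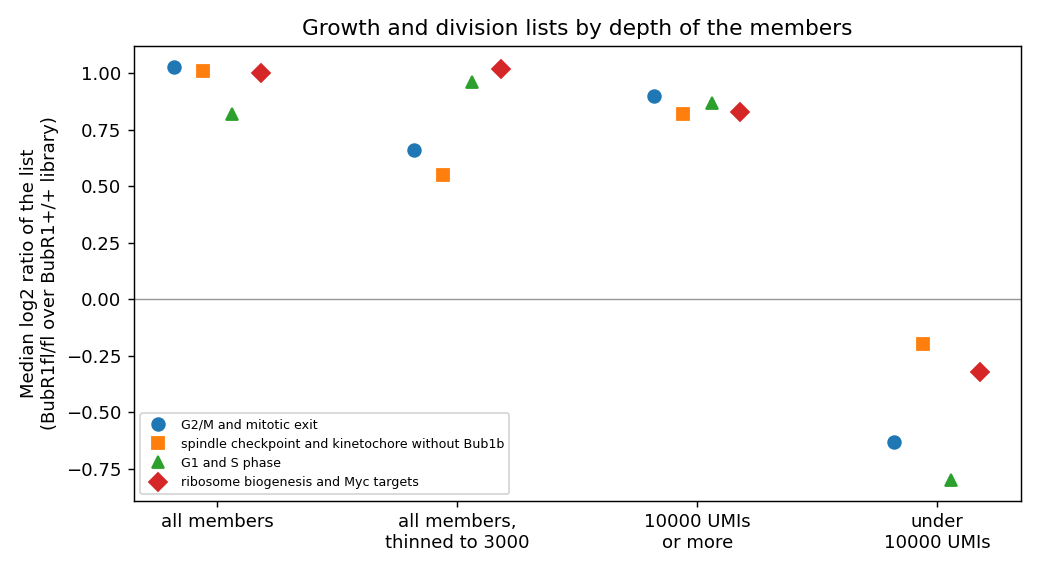
Median log2 ratio, knockout over wildtype, of 4 growth and division lists, over all megakaryocytes, after thinning each to 3000 UMIs, and in deep and shallow cells apart. All medians are above 0 in the first 3 sets, and all are below 0 in cells under 10000 UMIs, where they lie between -0.80 and -0.20.

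Cells with and without division transcripts differed in platelet genes within each library. After thinning to 3000 UMIs, 68 knockout megakaryocytes (42.8%) and 11 wildtype ones (17.7%) held 5 or more UMIs from G2/M genes, and 32 (20.1%) and 25 (40.3%) held none. In the knockout library Tubb1 stood at 55.7 CPM in cells with at least 5 and at 406 CPM in cells with none. In the wildtype library it stood at 47.8 and 237 CPM. Itga2b, a choosing gene, was at 269 and 994 CPM in knockout cells of these kinds and at 229 and 872 CPM in wildtype cells. Plek was at 734 and 1740 CPM and at 478 and 812 CPM. Pf4 followed this order in the knockout library, with 7240 CPM in cells with at least 5 and 24000 CPM in cells with none, but not in the wildtype library, with 4550 and 2940 CPM. The cells without G2/M UMIs were the shallower ones, with medians of 6471 UMIs in the knockout and 6297 UMIs in the wildtype library, against 22119.5 and 8070 UMIs in cells with at least 5. Itga2b is a choosing gene, and its values partly describe the choice. Tubb1 and Plek also stood higher in cells with 6 choosing genes than in cells with 3. In the knockout library Tubb1 was at 247 and 27.9 CPM in these cells and Plek at 1300 and 233 CPM. In the wildtype library, with only 3 cells that held 6, they were at 488 and 46.5 CPM and at 2130 and 186 CPM. The part of depth and of the choice in the differences by G2/M UMIs was not tested.

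**Figure D5:**
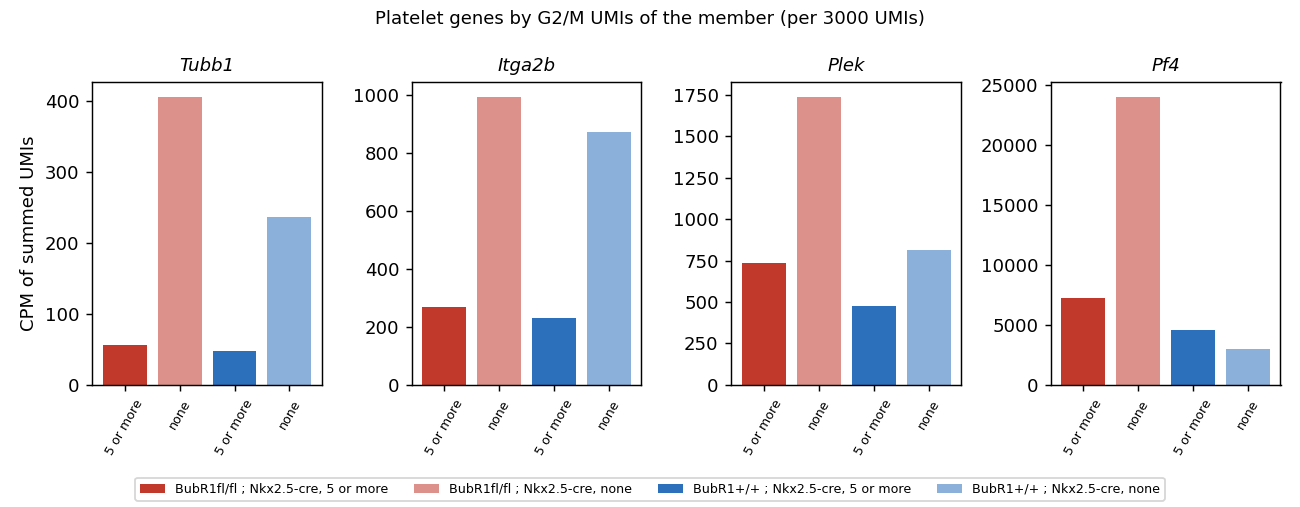
Levels of Tubb1, Itga2b, Plek and Pf4, in CPM of summed UMIs, in megakaryocytes with 5 or more G2/M UMIs and with none after thinning to 3000 UMIs. Knockout bars are red (68 and 32 cells) and wildtype bars blue (11 and 25 cells). Tubb1, Plek and the choosing gene Itga2b are higher in cells with none in both libraries, and Pf4 in the knockout library.

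Bub1b, the targeted gene, was low, with intervals that overlap between the libraries. It stood at 37.0 CPM [30.1, 45.0] in knockout megakaryocytes (100 UMIs in 50 cells) and at 26.8 CPM [15, 44.1] in wildtype ones (15 UMIs in 10 cells), a log2 ratio of 0.47 [-0.32, 1.36]. In cardiomyocyte barcodes, where the Cre acts, it was at 30.7 and 59.2 CPM, and in all other barcodes under the hemoglobin limit at 43.2 and 43.6 CPM. Which part of the gene was deleted is not given in the labels, and 3' reads outside it would not show the deletion. Bub1b was at 53.8 and 6.76 CPM in knockout cells with at least 5 and with no G2/M UMIs, and at 95.6 and 0 CPM in wildtype cells.

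The p53 targets and immediate early genes were scattered. Of 13 p53 targets 2 were at least 2-fold higher in knockout megakaryocytes and 4 lower, with a median of -0.47. The median was above 0 at each depth, at 0.20 over 5 genes in cells under 10000 UMIs and 0.17 over 13 genes in deeper ones. Bbc3, the death gene PUMA, was at 21.8 and 107 CPM (-2.30 [-2.84, -1.75]), and Phlda3, an inhibitor of Akt, at 15.2 and 87.4 CPM (-2.53 [-3.16, -1.90]). The ratio of Bbc3 was -0.47 [-1.14, 0.19] in cells under 10000 UMIs, and that of Phlda3 -3.18 [-4.89, -1.83]. Cdkn1a, the p21 inhibitor of cyclin-dependent kinases, had 43 and 4 UMIs (1.16 [-0.31, 3.09]), all 4 in 1 wildtype cell. Bax was at 168 and 109 CPM (0.62 [0.24, 1.03]). Of 18 immediate early genes 2 were at least 2-fold higher and 7 lower, with a median of -0.47 beside -0.37 in the other barcodes. Btg1, an anti-proliferative gene, was at 109 and 416 CPM (-1.93 [-2.18, -1.67]), and Jund at 179 and 453 CPM (-1.34 [-1.56, -1.11]). Their ratios were -0.34 and -0.82 in cells under 10000 UMIs. Klf4, a growth-arrest factor, was at 10.4 and 66.0 CPM (-2.67 [-3.44, -1.93]), and 1 wildtype cell held 54.1% of its 37 wildtype UMIs. Hspa1b, a heat shock chaperone on the same list, had 66 UMIs in 16 knockout cells and 1 UMI in the wildtype library.

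Heme and erythroid genes were few in UMIs. Of 16 genes 3 were at least 2-fold higher in knockout megakaryocytes and 3 lower. Tfrc, the transferrin receptor, was at 59.1 and 25 CPM (1.24 [0.45, 2.15]), and Alas2, the first enzyme of heme synthesis in red cells, had only 12 and 10 UMIs. Car2, carbonic anhydrase 2, was at 97.6 and 58.9 CPM (0.73 [0.20, 1.30]). The erythroid marker list, which holds the hemoglobin genes, summed to 3480 and 13200 CPM, and in the barcodes under 100 UMIs, which hold free RNA, to 74200 and 265000 CPM. From hemoglobin, free RNA could make up at most 4.52% of the megakaryocyte UMIs in the knockout and 4.94% in the wildtype library.

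The highest and lowest ratios were taken from 4194 candidates that reached 50 UMIs in the libraries together and 50 CPM in the higher one. Choosing, mitochondrial, ribosomal protein, hemoglobin and Y-linked genes, Xist and unnamed gene models were left out. The 12 highest and 12 lowest of these with an interval apart from 0 included genes of other cell types and genes held by few cells. Of the 12 highest, Cdh4, a cadherin, had 220 UMIs in 45 knockout megakaryocytes and 1 UMI in the wildtype library (5.51 [3.02, 10.82]), and in the other barcodes it was at 4.95 and 10.1 CPM. Afp and Rbp4, genes of liver and yolk sac, had 94.9% and 97.6% of their knockout UMIs in 1 cell. Hepatic markers in all summed to 328 CPM with 9 of 10 detected in knockout megakaryocytes, and to 23.2 CPM with 3 of 10 detected in wildtype ones. The other 9 were Mthfd2, Hsph1, Mt1, Rrp8, Spc25, Timm8a1, Spns1, Gsap and Cpox, with log2 ratios between 2.12 and 3.07. Mthfd2, a mitochondrial enzyme of folate metabolism, was found in 75 knockout and 5 wildtype megakaryocytes, and Spns1, a lysosomal transporter, in 93 and 15. In the other barcodes Cdh4, Spns1 and Gsap were not higher in the knockout library, with log2 ratios of -1.03, -0.09 and -2.25. All others of the 12 were higher there too. Afp and Rbp4 had log2 ratios of 10.87 and 6.3 in the other barcodes, and the remaining genes lay between 0.48 (Rrp8) and 1.56 (Hsph1).

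All 12 lowest of the candidates were also lower in the other barcodes of the knockout library, and several encode extracellular matrix. Eln, tropoelastin, had 2 and 224 UMIs (-9.08 [-12.13, -7.21]), and its log2 ratio in the other barcodes was -6.03. Il1rapl1, a synaptic adhesion gene, had 0 and 150 UMIs, with a 95% interval of the log2 ratio that ends at -7.6, and it was at 4.06 and 171 CPM in the other barcodes. Fbln5, Sfrp2, Mgp, Mfap4, Adgrb3, Postn, Tm4sf1 and Piezo2 had log2 ratios between -6.84 and -4.21. Ifitm1 and Grm7 had 91.9% and 94.0% of their wildtype UMIs in 1 cell each. Mesenchyme markers summed to 451 CPM in knockout and 2490 CPM in wildtype megakaryocytes, all 10 detected in each, against 1190 and 3200 CPM in the other barcodes. Their part in these ratios was not tested.

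Markers of other cells were found in megakaryocytes of both libraries, for several lists near their level in the other barcodes. Cardiomyocyte markers summed to 1790 CPM in knockout and 2610 CPM in wildtype megakaryocytes, with single cells between 0 and 37600 CPM and between 0 and 36800 CPM, against 6760 and 8550 CPM in the other barcodes. Endothelial markers summed to 424 and 865 CPM, against 663 and 1150 CPM in the other barcodes, and epicardial ones to 662 and 914 CPM, against 1490 and 719 CPM, all 10 of each detected in both libraries. In wildtype megakaryocytes the epicardial and erythroid sums were thus above those of the other barcodes, which held 10200 CPM of erythroid markers. Macrophage markers summed to 42.1 and 89.2 CPM, against 102 and 653 CPM in the other barcodes, with 8 of 12 detected in each. C1qa, C1qb, C1qc and Adgre1 were at 0 in knockout megakaryocytes, and C1qc, Mrc1, Cd68 and Adgre1 in wildtype ones. Mast cell markers summed to 25.5 and 114 CPM, with 3 of 10 detected in each library, against 10.2 and 19.4 CPM in the other barcodes. Blood progenitor markers summed to 105 and 159 CPM, against 79.8 and 120 CPM, and neural ones to 39.6 and 83.9 CPM, against 82.7 and 82.9 CPM. The part of these transcripts in the differences between the libraries was not tested. Without the cells in which a list of another type reached 1% of UMIs or hemoglobin 5%, which left 148 and 54 megakaryocytes, the log2 ratio of Pf4 was 2.62.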

How the data were processed

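Each of the 2 libraries was made from 4 pooled hearts with a droplet 3' kit, and each was used as deposited: a matrix of whole-number UMI counts per gene and barcode, unfiltered, for 32285 genes. Per the submitters' processing notes the authors used Cell Ranger 7.1.0 and mm10, and gene coordinates are those of a GENCODE annotation of that build. The members and lists were chosen with earlier results of these data known. UMIs were summed over megakaryocytes of a library and scaled to a total of 1000000 (CPM). A gene needed 20 UMIs in the libraries together to enter ratios and lists. Intervals are exact at 95% (Poisson for levels, Clopper-Pearson for shares, conditional binomial for ratios). Those for ratios were checked on Poisson counts simulated from the summed UMIs. Such counts hold no spread between cells, so the check does not cover it. To compare shares of cells, barcodes were thinned at random to 3000 UMIs, and 0 megakaryocytes were too shallow for this. Named genes were the 6 choosing genes, Pf4, Bub1b, the 15 highest over the other barcodes, the 12 highest and 12 lowest ratios and, of each list, those with most UMIs or the largest ratios, and some genes that this rule takes are not reported here. Further genes, among them Gata1, Vwf, Kit, Myb, Zwint, Cdkn1a and Hspa1b, were named after their values had been seen. Doublets were left in, and removing the top Scrublet scores (16 knockout and 10 wildtype megakaryocytes) was an alternative, since the caller's own limit marked 2 wildtype barcodes. Free RNA was not subtracted in the values given, and subtracting it was an alternative. Alternatives that split the cells at 10000 UMIs, left out cells with other markers or counted choosing genes after thinning were added after seeing the data. Python 3.11.15, numpy 2.4.6, scipy 1.17.1, pandas 2.3.3, scanpy 1.11.5 and matplotlib 3.10.9 were used.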

Additional observations from a re-analysis of the deposited data

Results flagged for a closer look

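Barcodes of 500 to under 3000 UMIs lie outside the filter, and a megakaryocyte signal was present there too. Of 2284 such knockout and 3016 such wildtype barcodes, 49 (2.15%) and 65 (2.16%) held at least 3 choosing genes, so the larger share in the knockout library was not seen here. Pf4 stood at 27200 CPM in the knockout ones and at 23900 CPM in the wildtype ones, against 380 and 203 CPM in the other barcodes of the same depth. Their median was 1119 and 1066 UMIs, and 89.8% and 86.2% of them held a Pf4 UMI. The difference in Pf4 between the libraries seen in deeper cells was not as large here. The cardiomyocyte gene Tnnt2 was at 415 and 429 CPM, and the median share of mitochondrial UMIs was 7.7% and 9.35%.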

How the results depend on the processing

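No paired analysis was possible because each genotype has 1 library. All ratios are log2, knockout over wildtype. Under 2 settings the excess of lower genes (1463 against 835 higher) was gone. With at least 4 choosing genes the shares were 2.60% and 0.687%, Pf4 was 1.38, 1295 genes were 2-fold higher and 1266 lower, and the medians were 1.72 (G2/M), 1.46 (spindle) and 1.45 (ribosome), while Ppbp (-0.40), Grm7 (0.46), Prkca (-0.00) and Plek (-0.14) turned. With at least 2 the shares were 4.46% and 1.79%. With choosing genes counted at 3000 UMIs the shares were 2.21% and 0.630%, 1105 genes were 2-fold higher and 1072 lower, Bub1b was 2.11, Pf4 1.74, G2/M 1.79 and ribosome 1.41. With doublets removed Bub1b was 1.6, Pf4 1.70, G1 and S phase 1.36, G2/M 1.68 and ribosome 1.42, and Ppbp turned (-0.03). In cells under 10000 UMIs Bub1b was -0.71, Pf4 3.20, 522 genes were 2-fold higher and 882 lower, and 4 medians turned: G1 and S phase -0.80, G2/M -0.63, spindle -0.20 and ribosome -0.32. In cells of 10000 UMIs or more Pf4 was 1.47 and ribosome 0.83. At a minimum of 5000 UMIs Pf4 was 1.76, and Ppbp (-0.03) and Zwint (0.04) turned. At a hemoglobin limit of 5% Pf4 was 2.44, and Gp9 (0.16), Alox12 (0.02) and Tuba4a (0.47) turned. Without cells carrying other markers Pf4 was 2.62, and relative to the median gene 2.02. As a mean of CPM over cells Pf4 was 2.56 and G2/M 0.82, and Gp9 (0.40) and Myl9 (0.13) turned. After thinning to 3000 UMIs Pf4 was 2.54, 551 genes were 2-fold higher and 622 lower, G2/M was 0.66 and spindle 0.55, and Gp9 (0.68), Alox12 (0.07), Myl9 (0.18), Myb (-0.55) and Alas2 (0.23) turned. A minimum of 50 UMIs left 540 and 813 genes past 2-fold, and at least 1 UMI in each library gave 3635 lower. The causes were not tested. The 62 wildtype cells and their 560384 UMIs limit the precision.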
